A study of Mus musculus with 6 samples.

Results

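Liver X receptors (LXRs) drive the genes by which a macrophage exports cholesterol, and 10 genes of that programme were followed here: the exporters Abcg1 and Abca1, the secreted proteins Apoe, Apoc2, Pltp and Lpl, the ubiquitin ligase Mylip, and the receptors Nr1h3 (LXR alpha), Nr1h2 (LXR beta) and Rxra. They were taken by symbol from the 15982 genes of the authors' deposited table, and each of the 10 symbols had 1 row. The list was chosen by its link to Abcg1, which was selected on its adjusted p in this same contrast, and with the other deposited values in view. All values of the 10 genes below are therefore a description, and the p-values printed with them are the authors' own and support nothing further.

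Primary mouse BMMs, macrophages grown from bone marrow, came from a control genotype (Ctrl) or from animals with a conditional, myeloid-restricted knockout of Bub1, a kinase of the mitotic checkpoint (Bub1 cKO), and each genotype has 3 libraries. Both groups had 3 days of M-CSF (20 ng/ml), a macrophage growth factor, followed by 2 days of M-CSF (20 ng/ml) plus RANKL (50 ng/ml), which drives such precursors toward the bone-resorbing osteoclast. The sources used here name no Cre driver, strain or age, and do not say if libraries of 1 genotype are separate animals. The p-values thus reflect library-to-library spread, which could be technical. The table holds 1 value per gene and genotype, so levels carry no SD here, and the precision comes from the authors' standard error.

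Cholesterol in a macrophage comes mostly from engulfed lipoproteins and dead cells. When it builds up, oxysterols and the synthesis intermediate desmosterol bind LXRs, which sit on DNA as dimers with a retinoid X receptor such as RXRA and then switch from repressing to activating their target genes. Abca1 loads cholesterol onto lipid-poor apolipoprotein A-I, and Abcg1 passes it on to mature HDL particles. In osteoclasts, which depend on membrane cholesterol for fusion and survival, synthetic LXR agonists are known to restrain differentiation in culture.

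The DNA element of this programme is a direct repeat: in its ideal form AGGTCA, any 4 letters, and AGGTCA again. Promoter windows from RefSeq (GRCm38.p6), 250 bases before to 50 after a start, were present for 8 of the 10 genes, in 12 windows, and were searched on both strands. No window of the 10 genes held the ideal form, which 5 of 32851 windows did (0.0152%). At up to 3 mismatches in the 12 fixed letters, 2 of the 12 windows matched, 1 of Abca1 and 1 of Rxra, beside 21.9% of all windows, so a match at this looseness is common. The 4 elements are shown because they let a reader compare the Abca1 site, a textbook LXR element, with that of Srebf1 and Fasn, the lipid synthesis genes that LXR also drives. Capitals mark the half-sites, read in the direction of the ideal form, and every one of the 4 differs from it in 3 letters.
Abca1: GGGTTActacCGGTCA
Srebf1: GGGTTActggCGGTCA
Fasn: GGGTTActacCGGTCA
Rxra: GTGGCAggaaAGGTCA

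The Abca1 element lies 67 to 52 bases before the start, on the strand opposite to the gene (chr4:53159947-53159962). The Srebf1 element lies 182 to 167 bases before a start of that gene (chr11:60210638-60210653), the Fasn element 225 to 210 bases before a start (chr11:120824757-120824772) and the Rxra element 58 to 43 bases before a start (chr2:27709234-27709249). The shared form, GGGTTA and CGGTCA with any 4 letters between, was read off the Abca1 and Srebf1 matches after they were seen. It occurs in 3 of all 32851 windows (0.00913%), those of Abca1, Fasn and Srebf1, and Fasn is the 1 gene among them that did not define it. The 250 bases upstream of Abca1 (chr4:53159896-53160145, minus strand, GRCm38.p6) follow, with the element in capitals as it reads along the gene.
Abca1 upstream: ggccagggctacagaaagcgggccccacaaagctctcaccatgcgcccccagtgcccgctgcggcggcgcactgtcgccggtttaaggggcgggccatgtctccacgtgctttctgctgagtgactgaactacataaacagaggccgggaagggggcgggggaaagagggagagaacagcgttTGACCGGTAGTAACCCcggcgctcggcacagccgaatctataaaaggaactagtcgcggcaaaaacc

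Elements of Abcg1, Apoe and Lpl are known to lie in introns or downstream enhancers, outside windows of this kind. No RefSeq window was at hand for Abcg1 and Lpl. A match is a description of letters and says nothing about binding in these cells.

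Of the 10 genes, 1 passed the authors' threshold, Abcg1, with a p under 0.05 after adjustment for the number of genes tested, and it was lower in Bub1 cKO. Over all 15982 genes, 29 passed (0.181%), 11 of them lower (0.0688%). At an adjusted p under 0.1 Lpl joined Abcg1, beside 44 of all genes (0.275%). With an unadjusted p under 0.05 were 4 of the 10 genes, Abcg1, Lpl and Pltp lower and Apoe higher, beside 769 of all genes (4.81%), with 2.46% lower and 2.35% higher. The authors' test statistic was positive in 5 genes and negative in 5, with a median of -0.00, the same as over all genes. The median log2 change, defined in the authors' deposited table as log2((Bub1 cKO + 1)/(Ctrl + 1)), was 0.03 for the 10 genes and -0.01 for all genes. Higher and lower values were thus evenly split, and the genes are described by role.

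**Figure D1:**
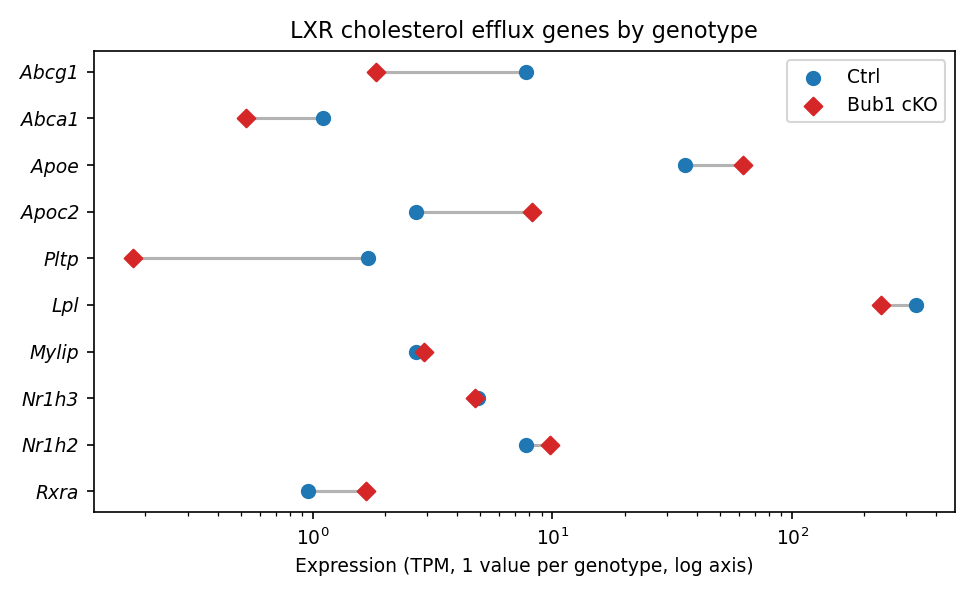
Expression of the 10 genes in TPM on a log axis, with circles for Ctrl and diamonds for Bub1 cKO, each 1 value per genotype without replicate spread. Abcg1, Abca1, Pltp and Lpl lie lower in Bub1 cKO, Apoe, Apoc2, Rxra and Nr1h2 lie higher, and the symbols of Nr1h3 and Mylip nearly coincide.

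Levels spanned more than the differences between genotypes did. TPM divides reads by transcript length, which sets genes on 1 scale but, in a library of tags from transcript ends, places long transcripts such as Abca1 (longest annotated form 10262 bases) low against short ones such as Apoe (1408 bases). In the authors' deposited table Lpl had the highest mean, 281 TPM, above 97.2% of all genes, and Apoe followed at 49.2 TPM. Nr1h2 (8.75 TPM), Apoc2 (5.47 TPM), Nr1h3 (4.84 TPM) and Abcg1 (4.79 TPM) came next in the authors' deposited table. Mylip (2.80 TPM), Rxra (1.31 TPM), Pltp (0.939 TPM) and Abca1 (0.817 TPM) had the lowest means in the authors' deposited table. Whether neighbours in this order differ beyond their spread cannot be said, because the table has no spread for a level. A mean of at least 1 TPM was reached by 8 of the 10 genes and one of at least 5 TPM by 4.

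Abcg1 (ENSMUSG00000024030.6, chr17:31057675-31117988 on the plus strand in GENCODE M21, GRCm38), the exporter to HDL, fell in the authors' deposited table from 7.76 TPM for Ctrl to 1.83 TPM for Bub1 cKO. The Ctrl value is 4.24 times the Bub1 cKO value. The log2 change in the authors' deposited table was -1.63, with an adjusted p of 0.031. The standard error of 0.478 goes with the estimate inside the authors' test, recovered as statistic times standard error and called the test's own log2 change: -1.96, with a 95% interval from -2.90 to -1.03. By the size of the statistic Abcg1 was number 21 among the 15982 genes. With a pseudocount of 5 in place of 1, its log2 change was -0.90. In bulk RNA such as this, fewer cells of a type and less RNA per cell cannot be told apart.

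The other exporter was much less well measured. Abca1 (ENSMUSG00000015243.4, chr4:53030787-53159895 on the minus strand) was listed in the authors' deposited table with 1.11 TPM for Ctrl and 0.526 TPM for Bub1 cKO. Its value was lower in Bub1 cKO, as that of Abcg1 was, but the adjusted p in the authors' deposited table was 0.985. The test's own log2 change was -0.39, with an interval from -1.96 to 1.18. A fall as steep as that of Abcg1 lies at the edge of this interval, and a rise of up to 1.18 lies inside it, so no difference was detectable at this precision. Whether the change of Abca1 differs from that of Abcg1 was not tested.

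Lpl (ENSMUSG00000015568.16, chr8:68880491-68907448 on the plus strand), the lipase that releases fatty acids from lipoproteins and an LXR target in macrophages, was the best measured of the 10 genes. It had 328 TPM on the Ctrl side and 235 TPM on the Bub1 cKO side of the authors' deposited table, a ratio of 0.717. With 0.081, the adjusted p of the authors' deposited table missed the threshold. The test's own log2 change of -0.47 had a standard error of 0.127, and its interval ran from -0.72 to -0.22. The size of its statistic put Lpl at number 40 of 15982 genes. When p was adjusted again over genes averaging 5 TPM or more, a set without Abcg1, Lpl passed with 0.0434, and over genes of at least 1 TPM it did not (0.0573, against 0.0212 for Abcg1).

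Pltp (ENSMUSG00000017754.13, chr2:164839518-164857711 on the minus strand), which moves phospholipids between lipoproteins, had the largest ratio between genotypes, 9.61, but a poor measurement. It measured 1.70 TPM in the Ctrl column and 0.177 TPM in the Bub1 cKO column of the authors' deposited table, with an adjusted p of 0.985. Its log2 change was -1.20 in the authors' deposited table against a test's own log2 change of -3.55, with an interval from -7.02 to -0.07. Ctsa, a lysosomal protease gene on the opposite strand, overlaps Pltp and was far more abundant, with 76.2 TPM (Ctrl) against 67.6 TPM (Bub1 cKO) by the authors' deposited table. The sources used here do not say if counting used strand, and without strand reads of Pltp and Ctsa cannot be told apart where they overlap.

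**Figure D2:**
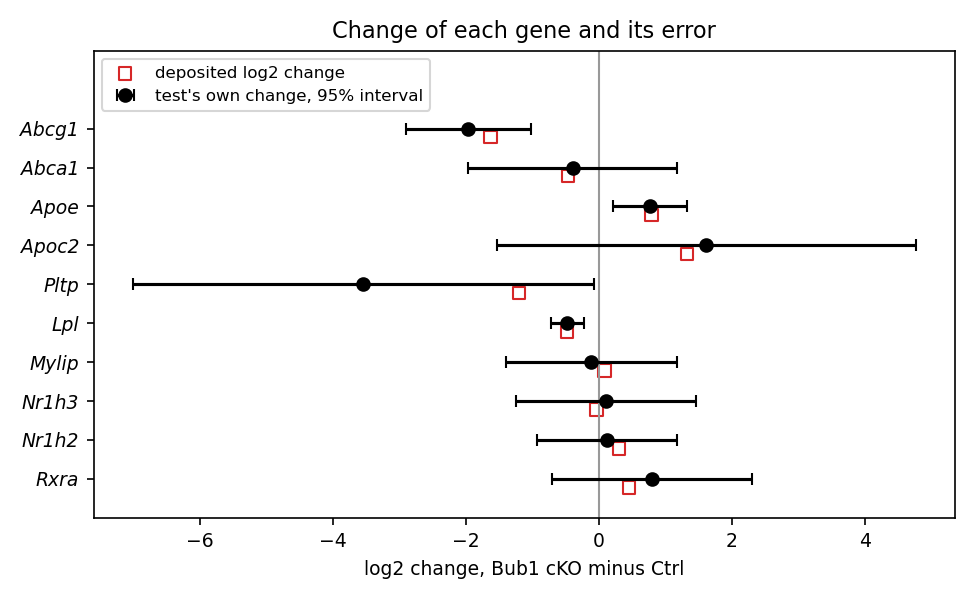
Log2 change of each gene, Bub1 cKO minus Ctrl, with filled circles and bars for the test's own change and its 95% interval, and open squares for the deposited change with a pseudocount of 1. The intervals of Abcg1, Apoe, Pltp and Lpl exclude 0, and those of Apoc2 and Pltp are the widest.

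Apoe went the other way. It encodes apolipoprotein E, which macrophages secrete to carry cholesterol away, and it was listed in the authors' deposited table with 35.7 TPM for Ctrl and 62.6 TPM for Bub1 cKO, a ratio of 1.75. The test's own log2 change of 0.77 had a standard error of 0.284, with an interval from 0.22 to 1.33. In the authors' deposited table its unadjusted p was 0.006 and its adjusted p 0.578, so Apoe did not pass. Apoe is thus the 1 gene of the 10 that was higher in Bub1 cKO at an unadjusted p under 0.05.

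Apoe and Apoc2 belong to a cluster of 4 apolipoprotein genes that LXR is known to regulate together in macrophages, spread over 27610 bases on the minus strand (chr7:19671579-19699188, GENCODE M21, GRCm38). Apoc2 (ENSMUSG00000002992.17), the cofactor that activates lipoprotein lipase, had 2.69 TPM on the Ctrl side and 8.25 TPM on the Bub1 cKO side of the authors' deposited table. That is a ratio of 3.07, but the standard error was 1.61 and the interval reached from -1.54 to 4.77 around the test's own log2 change of 1.61. In the authors' deposited table the Ctrl value of Apoc1 was listed at 0 TPM and its Bub1 cKO value was 1.26 TPM. Apoc4 was almost level in the authors' deposited table, with 1.46 TPM for Ctrl and 1.64 TPM for Bub1 cKO. All 4 values were higher in Bub1 cKO, and all 4 statistics were positive, while none passed the adjusted threshold. Apoe makes up most of the cluster's sum, 39.9 TPM for Ctrl and 73.8 TPM for Bub1 cKO. Of all 15982 genes, 7864 were higher in Bub1 cKO (49.2%).

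Mylip (ENSMUSG00000038175.10, chr13:45389742-45412022 on the plus strand), also known as IDOL, is a ubiquitin ligase that LXR induces. It measured 2.68 TPM in the Ctrl column and 2.91 TPM in the Bub1 cKO column of the authors' deposited table, against a test's own log2 change of -0.11, which has the opposite sign, with an interval from -1.40 to 1.17.

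Of the receptors Nr1h3 was near level, while Nr1h2 and Rxra were higher in value in Bub1 cKO. Nr1h3 (ENSMUSG00000002108.10), LXR alpha, is the form enriched in macrophages and itself an LXR target in human cells, and it was listed in the authors' deposited table with 4.91 TPM for Ctrl and 4.76 TPM for Bub1 cKO. Nr1h2 (ENSMUSG00000060601.13, chr7:44549616-44553951 on the minus strand), the widely expressed LXR beta, had 7.74 TPM on the Ctrl side and 9.77 TPM on the Bub1 cKO side of the authors' deposited table. Rxra (ENSMUSG00000015846.14), the dimer partner, had 0.954 TPM on the Ctrl side and 1.67 TPM on the Bub1 cKO side of the authors' deposited table, a ratio of 1.75 as for Apoe but with a standard error of 0.766. None passed, with adjusted p of 0.988, 0.985 and 0.985 for Nr1h3, Nr1h2 and Rxra in the authors' deposited table.

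The intervals of the receptors were wide enough to hold sizeable changes. The test's own log2 change was 0.11 for Nr1h3, from -1.24 to 1.47, opposite in sign to the -0.04 of the authors' deposited table. For Nr1h2 it was 0.13, from -0.92 to 1.18, and for Rxra 0.80, from -0.70 to 2.30. A difference in receptor level within these bounds was not detectable. Nr1h3 (chr2:91184061-91202834), Rxra (chr2:27676440-27762957) and Pltp lie on the chromosome of Bub1 (chr2:127801122-127831865), and a role of sequence differences linked to that locus was not tested. Bub1 itself had 6.73 TPM (Ctrl) and 5.32 TPM (Bub1 cKO) by the authors' deposited table, with adjusted p = 0.985. The sources used here do not name the deleted exons, and a tag outside them still counts toward the gene, which leaves the labels unchecked by this value.

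How well a gene was measured followed its level and its length. The libraries came from a QuantSeq 3' kit, which reads a tag near the end of each transcript, so a short transcript needs fewer tags to reach a given TPM. Among 220 genes with 1 annotated transcript and a mean of 5 to 10 TPM, the median standard error was 3.23 for the shortest 25% by length and 0.407 for the longest 25%. Apoc2, whose longest annotated transcript has 727 bases, had a standard error of 1.61 at 5.47 TPM in the authors' deposited table. Abcg1, whose longest annotated transcript has 5832 bases, had 0.478 at a similar 4.79 TPM in the authors' deposited table. By the median over annotated transcripts the lengths lie closer, 1085 bases for Abcg1 and 631 for Apoc2. The part of length in the difference between these 2 genes was not tested. The standard error of Lpl, 0.127, was 0.167 times the median of all genes, and that of Pltp, 1.77, was 2.33 times it.

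**Figure D3:**
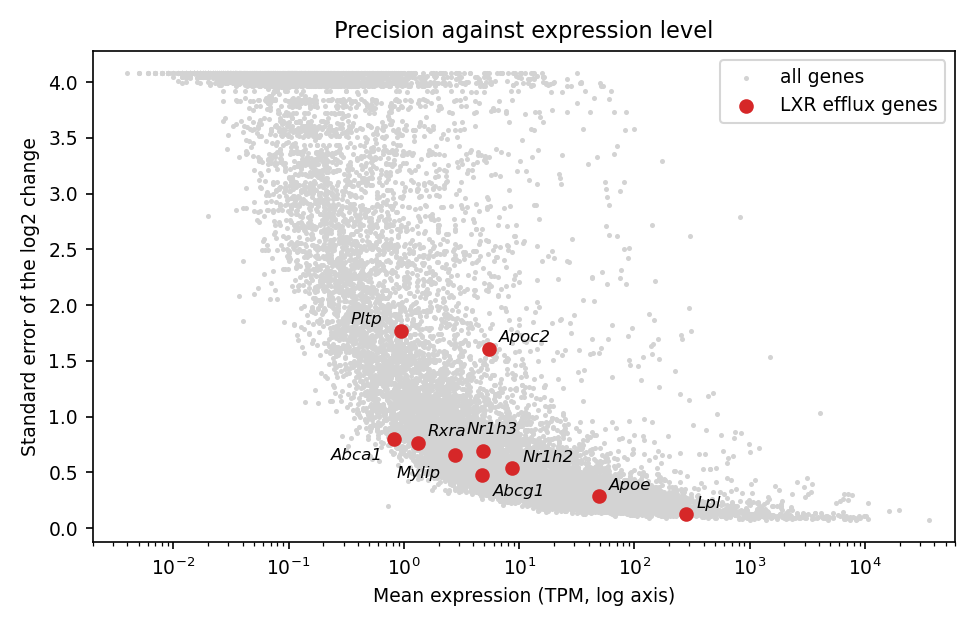
Standard error of the log2 change against mean expression in TPM on a log axis, for all genes in grey and the 10 genes in red. Lpl and Apoe lie in the well measured range at the right, and Apoc2 and Pltp have the largest errors of the 10.

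The other genes of the pathway were taken from 6 lists of 105 genes, of which 95 were in the table. None passed the authors' adjusted p under 0.05, while 7 had an unadjusted p under 0.05 (7.37%, beside 4.81% of all genes), 3 higher and 4 lower in Bub1 cKO. Of 15 further LXR target genes 13 were present, 7 with a positive and 6 with a negative statistic, and the list's median log2 change was 0.10 beside -0.01 for all genes. That median turned negative over the 10 whose mean reached 1 TPM (-0.02, with 5 positive and 5 negative statistics) and over the 4 of at least 5 TPM (-0.22, with 1 positive and 3 negative). Srebf1, the transcription factor of fatty acid synthesis whose element is printed above, measured 3.46 TPM in the Ctrl column and 1.51 TPM in the Bub1 cKO column of the authors' deposited table (adjusted p = 0.985). Scd2, a fatty acid desaturase that Srebf1 drives, measured 2.12 TPM in the Ctrl column and 0.836 TPM in the Bub1 cKO column of the authors' deposited table (unadjusted p = 0.036, adjusted p = 0.970). Fasn, with the same element as Abca1, was listed in the authors' deposited table with 1.76 TPM for Ctrl and 2.37 TPM for Bub1 cKO and was picked with its values in view.

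Of the LXR targets outside the 10 genes, Cd5l had the smallest p. It encodes a secreted survival protein of tissue macrophages. Its values in the authors' deposited table were 0.353 TPM for Ctrl and 3.34 TPM for Bub1 cKO (unadjusted p = 0.004, adjusted p = 0.445). Its mean reaches 1 TPM only through Bub1 cKO. Tgm2, a transglutaminase used in the clearance of dead cells, had 6.76 TPM on the Ctrl side and 9.80 TPM on the Bub1 cKO side of the authors' deposited table, with an adjusted p of 0.985. Of the genes with elements of the same form, Abca1 and Srebf1 were lower in value in Bub1 cKO and Fasn was higher, and none of the 3 passed.

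Among 19 partners and coregulators of LXR, all present, 7 had a positive and 12 a negative statistic, with a median log2 change of -0.18. Tbl1xr1, a subunit of the NCoR and SMRT corepressor complexes, had 10.8 TPM on the Ctrl side and 7.57 TPM on the Bub1 cKO side of the authors' deposited table (unadjusted p = 0.022, adjusted p = 0.861). The Mediator subunit Med1 measured 11.4 TPM in the Ctrl column and 14.9 TPM in the Bub1 cKO column of the authors' deposited table. The coactivators Ncoa3, at 6.32 and 5.17 TPM, and Ncoa1, at 13.7 and 9.65 TPM, were lower in value in the authors' deposited table. The adjusted p of Med1, Ncoa3 and Ncoa1 was 0.985 in the authors' deposited table.

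Genes that bring cholesterol in, store it or move it within the cell had 20 of 22 listed members present, 9 with a positive and 11 with a negative statistic. Lipa encodes the lysosomal acid lipase that frees cholesterol from engulfed lipoproteins. It measured 256 TPM for Ctrl and 182 TPM for Bub1 cKO by the authors' deposited table (unadjusted p = 0.002, adjusted p = 0.310). The interval of its log2 change ran from -0.77 to -0.18. Ch25h makes the LXR ligand 25-hydroxycholesterol. It was listed at 0 TPM for Ctrl and had 2.01 TPM for Bub1 cKO by the authors' deposited table (unadjusted p = 0.022, adjusted p = 0.861). Its mean too reaches 1 TPM only through Bub1 cKO. Lrp1, an endocytic receptor that binds apolipoprotein E, had 17.1 TPM for Ctrl and 15.8 TPM for Bub1 cKO by the authors' deposited table (unadjusted p = 0.045). The triglyceride lipase gene Pnpla2 had 22.8 TPM for Ctrl and 15.0 TPM for Bub1 cKO by the authors' deposited table, and both had an adjusted p of 0.985.

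Cholesterol synthesis genes, which SREBP2 drives when sterols are low, had 9 positive and 15 negative statistics in 24 of 25 listed genes. Their median log2 change was 0.10 and their median statistic -0.22, so these differ in sign. Hmgcs1, an early enzyme of the pathway, was listed in the authors' deposited table with 21.9 TPM for Ctrl and 15.8 TPM for Bub1 cKO (unadjusted p = 0.058). Msmo1, a later sterol enzyme, had 26.2 TPM for Ctrl and 32.4 TPM for Bub1 cKO by the authors' deposited table (unadjusted p = 0.027). It was the 1 gene of this list with an unadjusted p under 0.05. The sterol reductase gene Tm7sf2 had 57.2 TPM for Ctrl and 28.9 TPM for Bub1 cKO by the authors' deposited table (unadjusted p = 0.058). The adjusted p was 0.905 for Msmo1 and 0.985 for Hmgcs1 and Tm7sf2 in the authors' deposited table.

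Of 11 partners of lipoprotein lipase 7 were present, 5 of them with a mean of at least 1 TPM, and 0 were under an unadjusted p of 0.05. The fatty acid carrier gene Fabp4 had 5.29 TPM on the Ctrl side and 3.09 TPM on the Bub1 cKO side of the authors' deposited table, with an adjusted p of 0.985. Lmf2, related to the factor Lmf1 that matures the lipase, had 3.45 TPM for Ctrl and 3.82 TPM for Bub1 cKO by the authors' deposited table. Angptl4, a secreted inhibitor of the lipase, was under 1 TPM in each genotype in the authors' deposited table. The most abundant of the list were the fatty acid carrier gene Fabp5, with a mean of 91.7 TPM, and Sel1l, a factor of protein quality control in the endoplasmic reticulum, with 78.3 TPM in the authors' deposited table, both picked with their values in view. Of 17 other transporters of the ABCA and ABCG subfamilies 13 were present, 4 with a mean of at least 1 TPM, and 0 were under an unadjusted p of 0.05. Abca5, with 0.211 TPM for Ctrl and 0.800 TPM for Bub1 cKO by the authors' deposited table, had the smallest p (0.051), and Abca6, Abca7 and Abca9 had means under 1 TPM.

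**Figure D4:**
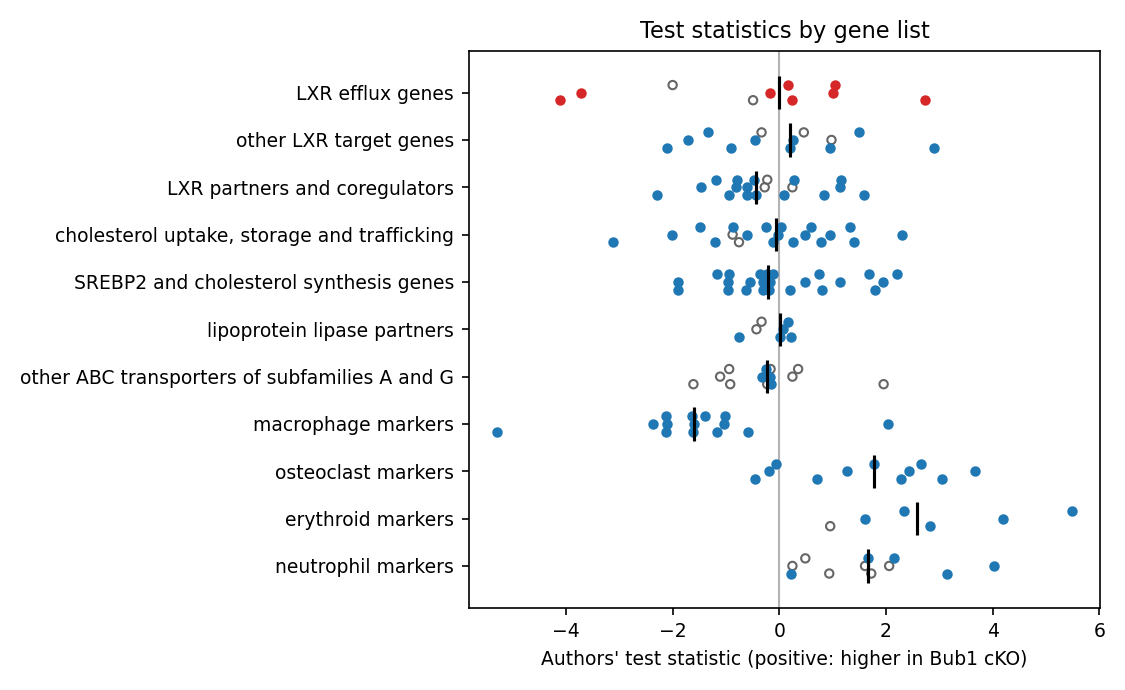
The authors' test statistic for each gene, by list, with filled symbols for a mean of at least 1 TPM, open symbols below it and a black bar at each list's median. Medians of the pathway lists lie near 0, those of macrophage markers lie below it, and those of osteoclast, erythroid and neutrophil markers lie above it.

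Markers of the cells in the culture also differed in value, and Lyz2, Hbb-bs, Hbb-bt and Cxcr2 were those that passed. Of 14 macrophage markers 13 were lower in Bub1 cKO and Cd68 was higher, and by the authors' deposited table they summed to 2975 TPM for Ctrl and 1483 TPM for Bub1 cKO. Most of that drop was Lyz2, and without it the sums were 834 and 721 TPM. Of 11 osteoclast markers 9 were higher in value, with sums of 2038 and 2354 TPM. All 6 erythroid markers present were higher (19.6 and 358 TPM), with Alas2 and Slc4a1 at 0 in Ctrl. Of 11 neutrophil markers 10 were higher in value (95.8 and 235 TPM) and Ltf was lower (12.3 and 6.74 TPM). The statistic of Ltf was nevertheless positive (0.22, standard error 1.75), as were those of all 11. Camp, Elane, Lcn2 and Retnlg were at 0 in Ctrl. Most of the neutrophil sums was S100a8 (41.9 and 92.8 TPM) and S100a9 (38.0 and 115 TPM). Over all 15982 genes, 49.2% were higher in Bub1 cKO, 0.181% passed, and 1399 were at 0 in Ctrl. The part of these cell types in the values of Abcg1, Apoe and Lpl was not tested.

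Adipocytes and stromal cells also express Lpl, Apoe or Pltp. Of 6 adipocyte markers Adipoq, Cidec, Lep and Cfd had no row in the table, Plin1 was at 0.217 and 0.415 TPM, and Adig was at 4.05 TPM for Ctrl and 0 for Bub1 cKO by the authors' deposited table. The 9 stromal and osteoblast markers present summed to 5.42 TPM for Ctrl and 5.90 TPM for Bub1 cKO, beside the 328 TPM of Lpl, the 35.7 TPM of Apoe and the 1.70 TPM of Pltp for Ctrl. TPM in such a library places long transcripts low against short ones, so this sum gives no share of stromal cells. In Bub1 cKO Adig was lower in value and Plin1 higher, with standard errors of 2.72 and 2.20, and each had an adjusted p of 0.985. The part of adipocytes and stromal cells in the values of Lpl, Apoe and Pltp was not tested.

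The genes nearest to Abcg1 were sought among those past the adjusted threshold, by the gap in the test's own log2 change. The nearest 5 were Vcan (-1.59), a matrix proteoglycan, Lyz2 (-1.48), the lysozyme of macrophages, Cd72 (-1.38), a lectin-like receptor, Sat1 (-1.13), an enzyme of polyamine breakdown, and Olfr620 (-0.64), an olfactory receptor gene. The pool was small: 29 genes passed, of which 11 were lower in Bub1 cKO, Abcg1 included. The gaps from Abcg1 ran from 0.372 (Vcan) to 1.33 (Olfr620), so the list does not mark a group. Likeness here rests on 1 contrast between the genotypes. Abcg1 had the lowest level of these genes, at a mean of 4.79 TPM against 24.5 TPM for Vcan, 29.3 TPM for Cd72, 102 TPM for Olfr620, 112 TPM for Sat1 and 1451 TPM for Lyz2 in the authors' deposited table.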

How the data were processed

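The authors' deposited table compares Bub1 cKO with Ctrl, pooled over 3 libraries per genotype. Per the file headers it comes from RaNA-seq, a web service. Aligner, build, annotation and test: not given in the sources used here. Library depth is unknown. Per the labels' protocols, QuantSeq 3' libraries were prepared, each from 25 ng RNA. The authors scaled the deposited expression columns to a like total per genotype (sums 999891 and 999954) without naming a unit, and they were read as TPM, because over 444 genes with 1 transcript, the largest standard error and 1 genotype at 0 the value fell with transcript length (Spearman's rho -0.991 across genes). The deposited log2 change equals log2((Bub1 cKO + 1)/(Ctrl + 1)) within 0.002 in all 15982 genes and understates changes of low genes. Its sign was opposite to that of the statistic in 1519 genes, 995 of them with a mean of at least 5 TPM. A pseudocount cannot turn a sign, so the 2 estimates differ by more than the pseudocount. Statistic and standard error are scores from the authors' test. For 15974 genes the deposited p-value matched a 2-sided normal p of that statistic (tolerance 0.0006).

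From these, the test's own log2 change (statistic times standard error), its 95% normal interval, counts, and Benjamini-Hochberg adjustments over genes of at least 1 or 5 TPM were computed with Python 3.11.15, pandas 2.3.3 and SciPy 1.17.1. The adjustment and the motif search were tested on simulated data. Of the IDs, 14614 match GENCODE M21 with their version and 15902 without it, and 9 of the 10 genes match with it (not Abcg1). The genes, lists and alternatives were chosen with earlier results of these data known. All 10 genes are named, with up to 4 genes per list by smallest p and the 5 called genes nearest to Abcg1, except a few list genes that are not reported here. A replicate block and leaving out libraries were planned only in case the table held values per library, and it holds 1 value per genotype.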

Additional observations from a re-analysis of the deposited data

How the results depend on the processing

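The alternatives were pseudocounts of 0.1 and 5, the test's own log2 change, rescaling to a median log2 ratio of 0 (a shift of 0.00578), and other thresholds and filters. Of 45 alternative values for the 10 genes and their counts, 40 kept their direction and stayed within 1 standard error or 1.5 times the count. This tally is no measure of robustness, because a pseudocount cannot turn a sign and the shift was smaller than any of the 10 changes. Only the test's own log2 change could turn one, and with it 7 of the 10 genes stayed, 1 moved and 2 reversed. With a pseudocount of 5 Abcg1 moved from -1.63 to -0.90. With the test's own log2 change Pltp moved from -1.20 to -3.55, Nr1h3 turned from -0.04 to 0.11 and Mylip from 0.09 to -0.11, the last pair within their standard errors. At an adjusted p under 0.1 the number of genes called was 2 in place of 1, with Lpl added. The count was 1 with p adjusted over genes of at least 1 TPM (Abcg1) and also 1 over genes of at least 5 TPM, but the gene was then Lpl, since Abcg1 has a mean of 4.79 TPM and was not among those tested. Among the lists, the 2 further LXR targets at an unadjusted p under 0.05 became 0 over genes of at least 5 TPM. No paired analysis was possible because the table used here holds 1 value per genotype, with no values per library, and leaving out single libraries could not be run for the same reason. Low levels limit Pltp and Abca1, both with a mean under 1 TPM.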
